A study of Arabidopsis thaliana with 2 samples.

Results

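TCH4 (XTH22, AT5G57560) and 9 related genes of the xyloglucan endotransglucosylase/hydrolase (XTH) family were examined in seedlings of Arabidopsis thaliana. The 10 genes were chosen by locus identifier, with the large difference of TCH4 between the libraries already known, so their values are a description and no test was made on them. They are 10 of the 26743 features in the deposited table, and 10 of the 31 XTH genes that have values there. In the order of choice they are TCH4, XTH23, XTH24, XTH25, XTH17, XTH18, XTH19, XTH20, XTH15 and XTH4. RNA sequencing compared wild-type (WT) seedlings with seedlings of the jmj17-1 mutant, both in the Col-0 background. JMJ17 is named by the series as an H3K4 demethylase, an enzyme that removes methyl groups from histone H3. The material was the whole seedling at 7 days, grown on sucrose-free medium in long days (16 h light, 8 h dark). There was 1 library per genotype, so the spread between seedlings is unknown, no p-value was calculated and every difference below is between these 2 libraries.

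Xyloglucan is a branched polysaccharide that coats and links the cellulose microfibrils of the growing plant cell wall. XTH enzymes cut a xyloglucan chain and can rejoin the cut end to another chain, and in some members they release it to water, so the wall can be loosened, extended or repaired. TCH4 was first known as a gene whose transcript rises within minutes of touch, and it also responds to temperature shock, darkness, auxin and brassinosteroids. In Arabidopsis many of its relatives are known from particular organs or responses, such as roots, shoot apices, shade or healing stems.

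The active site is the stretch that defines the family. It was located by the family's conserved peptide, so a close match in protein there was built into the search. The coding bases of this stretch differ between members. The sequences were read from the reference assembly TAIR10.1 with the RefSeq gene models, 5′ to 3′ on the coding strand, and capitals mark bases that differ from TCH4.
TCH4: gacgagatagatttcgagtttttaggg
XTH23: gacgagatTgaCttTgagttCttGggA
XTH24: gaTgagatTgatttTgagttCttGggT
XTH25: gacgaAatCgatttcgagtttCtTggT
XTH17: gaTgagatCgatttcgagttCttGggA
XTH4: gacgagatagaCttTgagttCCtTggA
The TCH4 stretch lies in an exon at chr5:23307839-23307865 on the minus strand and encodes residues 96 to 104. The others lie at chr4:13129072-13129098 (plus strand), chr4:14820042-14820068 (minus), chr5:23305797-23305823 (minus), chr1:24257682-24257708 (plus) and chr2:2764493-2764519 (plus). All 10 members encode the same 9 residues here, with 0 substitutions, while 3 to 6 of the 27 bases differ from TCH4 in the other 9. Over whole proteins the 45 pairs of members were 45.4% to 93.3% identical, counted over the shorter protein, with a median of 63.5%. XTH23 was the closest relative of TCH4 at 83.5%, followed by XTH24 at 75.8%, XTH19 at 70.0% and XTH25 at 67.3%. XTH15, at 60.6%, and XTH4, at 49.6%, stood furthest from TCH4 among the members.

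Values are RPKM (reads per kilobase of feature, per 1000000 library reads), so levels can be compared between genes. The libraries held about 53900000 reads for WT and 45400000 for jmj17-1, estimated with TAIR10.1 transcript lengths, and their ratio came from the low values. A gene was called higher or lower when its log2 ratio, jmj17-1 over WT with 1 RPKM added to each, reached 1 in size, which is 2-fold. This was done for the 18969 features whose mean level was 1 RPKM or more. Of these features 0.39% were higher and 0.58% lower, 0.97% in all, and the median log2 ratio of all was 0.04. JMJ17 itself stood at 5.48 RPKM in WT against 2.90 in jmj17-1, a log2 ratio of -0.73 that was not called. Fold values are plain ratios of RPKM, jmj17-1 over WT. Each has a 95% exact Clopper-Pearson interval from the smallest whole read numbers that give the deposited ratio, which is the widest interval the values allow and covers counting error only.

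TCH4 was 5.63-fold lower in jmj17-1, XTH23 was 2.31-fold lower, and XTH25 stood lower at a level too low to be called. The remaining 7 members were not called. Of the 9 members past the level filter, 2 were called lower and 0 higher, against 0.58% and 0.39% of all features (0.97% in either direction). TCH4 was chosen for this difference, so nothing is read from that count. The median log2 ratio of these 9 members was -0.01. The summed level of all 10 members was 504 RPKM in WT against 376 in jmj17-1. Without TCH4 the other 9 summed to 349 RPKM in each library on the deposited scale. Differences of both signs offset each other in that sum. As jmj17-1 minus WT they were 8.64 RPKM for XTH24 and 2.87 for XTH20, against -6.17 for XTH4 and -4.81 for XTH23.

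**Figure D1:**
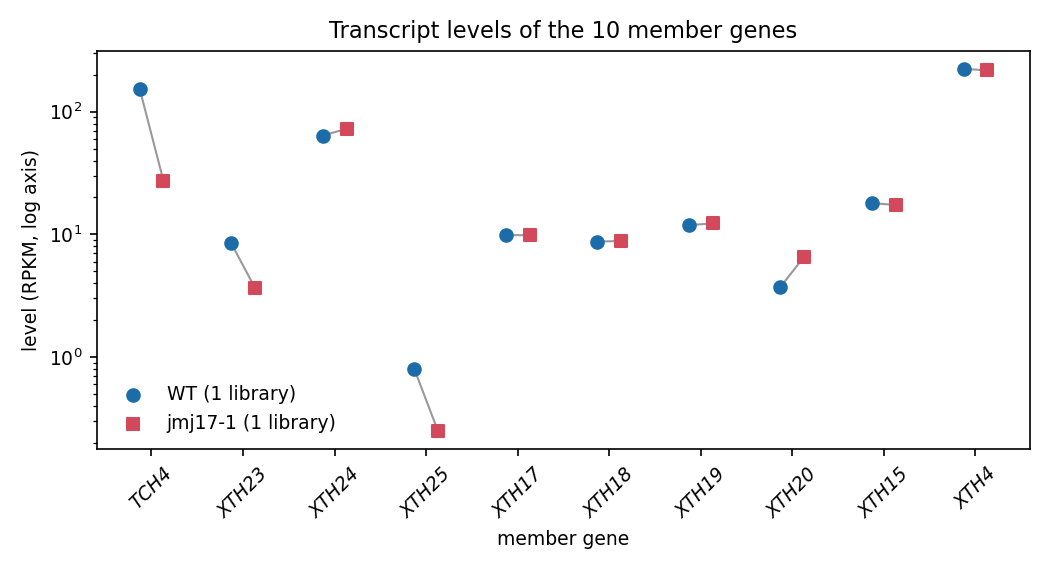
Levels of the 10 member genes in RPKM on a log axis, with 1 point per library (circles WT, squares jmj17-1) and a line joining the points of a gene. TCH4 drops from 155 to 27.5 RPKM and XTH23 from 8.48 to 3.67, while XTH4, XTH15, XTH17, XTH18 and XTH19 run nearly level.

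TCH4 stood at 155 RPKM in the WT library and 27.5 in the jmj17-1 library. Only the WT library was high, and the level in jmj17-1 was 17.8% of it (fold 0.178, counting interval 0.162 to 0.195, from at least 3401 and 509 reads). In WT TCH4 was the third most abundant of the 31 XTH genes and made up 13.5% of their summed RPKM. In jmj17-1 it ranked 10 and made up 2.79%. Its log2 ratio of -2.45 was the fifth lowest of the 9624 features averaging at least 10 RPKM. TCH4 was chosen for this difference, so nothing is read from the rank. The gene lies on the minus strand at chr5:23307006-23308680 and has 2 exons in RefSeq, where each other member has 3 or 4. No annotated gene overlaps it. The longest run of coding bases that it shares exactly with another XTH gene is 30, with XTH21, which encodes an XTH known from root growth.

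XTH23 (XTR6, AT4G25810), the closest relative of TCH4, stood at 8.48 RPKM in WT against 3.67 in jmj17-1. The WT library was the higher, and the fold was 0.432 (interval 0.367 to 0.508, from 571 and 208 reads or a multiple). Its log2 ratio of -1.02 lies close to the limit of the call, and with a pseudocount of 5 RPKM it was -0.64 and no longer called. TCH4 exceeded XTH23 18.2-fold in WT and 7.49-fold in jmj17-1. XTH25 (XTR3, AT5G57550) stood at 0.80 RPKM in WT against 0.25 in jmj17-1, a mean below the level filter. The fold was 0.310 with a wide interval of 0.103 to 0.782, from at least 23 and 6 reads.

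XTH24 (MERI5, AT4G30270) was first described from the shoot meristem and is also known as a senescence gene. It stood at 63.9 RPKM in WT against 72.6 in jmj17-1 (fold 1.14, 1.09 to 1.19, from 4193 and 4010 reads or a multiple). XTH24 is the next closest to TCH4 in protein sequence, and its difference went the other way and was far below the 2-fold limit. In WT it stood below TCH4 and in jmj17-1 above it, so the order of these genes was exchanged between the libraries.

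XTH17, XTH18, XTH19 and XTH20 form a subgroup of close relatives known mainly from roots. XTH17 stood at 9.87 RPKM in WT against 9.83 in jmj17-1 (fold 0.995, 0.883 to 1.12). XTH18 stood at 8.73 and 8.83 RPKM (fold 1.01, 0.886 to 1.15). XTH19 stood at 11.9 and 12.3 RPKM (fold 1.04, 0.932 to 1.15). For each of these 3 genes the levels of both libraries nearly coincided, and the interval includes 1. XTH20, which with XTH19 is known from the rejoining of cut stems, stood at 3.72 RPKM in WT against 6.60 in jmj17-1. It was the highest member by ratio (fold 1.77, 1.31 to 2.41, from at least 75 and 112 reads), with a log2 ratio of 0.69 that was not called. XTH17, XTH18 and XTH19 share exact coding runs of up to 68 bases (XTH18 with XTH19), and XTH20 shares up to 44 with XTH17. No source used here gives the read length or the treatment of reads that match more than 1 gene, so the division of reads within this subgroup is uncertain.

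XTH15 (XTR7, AT4G14130), known as a shade-induced gene, stood at 17.9 RPKM in WT against 17.4 in jmj17-1 (fold 0.973, 0.888 to 1.07). The end of XTH15 overlaps AT4G14120 of the opposite strand over 382 bases, and that gene was low in both libraries, at 2.11 and 1.95 RPKM. XTH4 (EXGT-A1, AT2G06850), a gene known from stem and fibre growth, was the most abundant XTH gene in both libraries, at 224 RPKM in WT against 218 in jmj17-1. Its fold was 0.972 (0.950 to 0.996), resting on 15349 and 12575 reads or a multiple. The ratio of the TCH4 level to the XTH4 level was 0.691 in WT and 0.126 in jmj17-1.

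In WT the order of levels among the members was XTH4, TCH4, XTH24, XTH15, XTH19, XTH17, XTH18, XTH23, XTH20 and XTH25. In jmj17-1 it was XTH4, XTH24, TCH4, XTH15, XTH19, XTH17, XTH18, XTH20, XTH23 and XTH25. With 1 library per genotype it is not known which neighbours in these orders differ beyond the spread between seedlings.

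The 21 other XTH genes with values placed these differences within the family. Of the 17 averaging at least 1 RPKM, 0 were called in either direction, beside 0.97% of all features, and a count of 0 in a list this short is near that background. Their median log2 ratio was -0.09 beside 0.04 for all features. The count of calls was also 0 under each pseudocount, filter and scaling tried. XTH30 had the lowest ratio, at 15.0 RPKM in WT against 9.93 in jmj17-1 (log2 ratio -0.55). XTH13 had the highest, at 1.20 and 1.73 RPKM (log2 ratio 0.31). XTH9, which like XTH4 is known from stem growth, was the most abundant of them, at 178 RPKM in WT against 132 in jmj17-1 (fold 0.742, 0.715 to 0.771). XTH26, a root hair gene, stood at 0.32 and 0.82 RPKM, below the level filter (fold 2.56, 1.45 to 4.67, from at least 19 and 41 reads). The whole family summed to 1143 RPKM in WT against 985 in jmj17-1, a ratio of 0.862, and to 988 and 957 without TCH4.

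**Figure D2:**
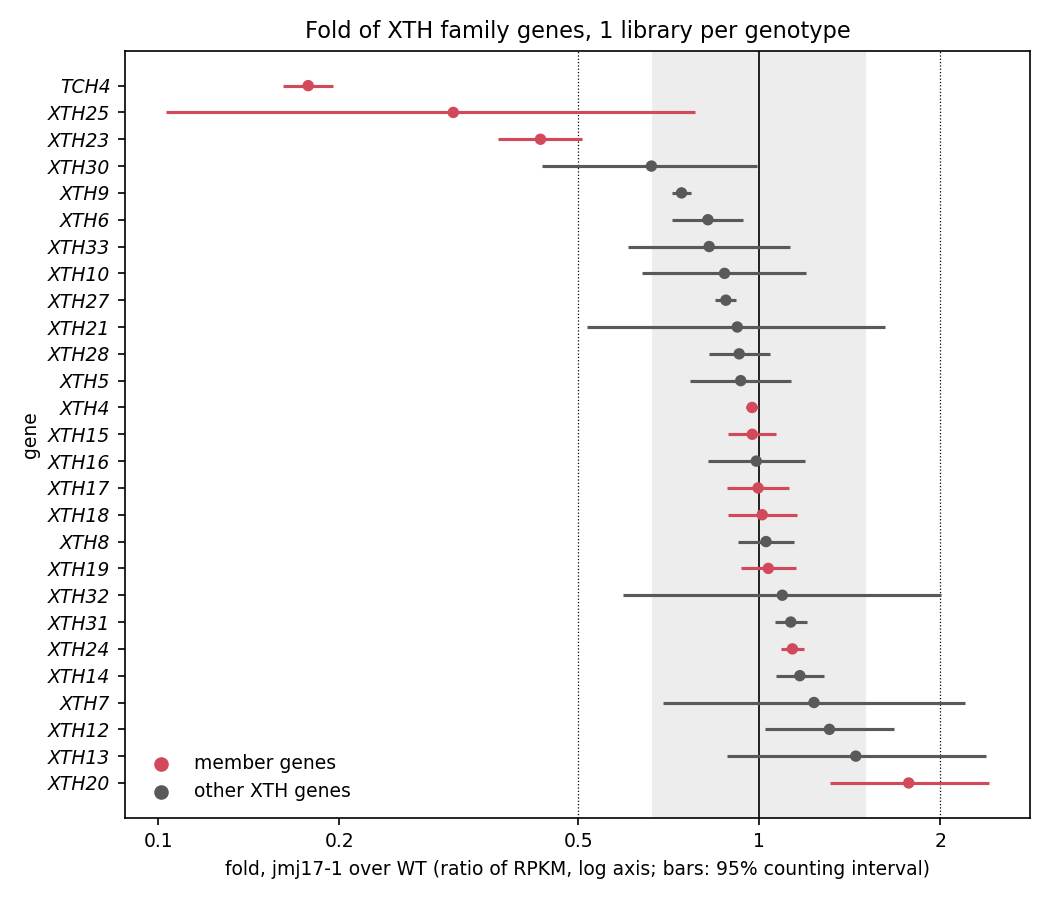
Fold of XTH genes, jmj17-1 over WT as a ratio of RPKM on a log axis, with 95% counting intervals as bars, for genes averaging at least 1 RPKM and XTH25. Dotted lines mark 2-fold and the grey band 1.5-fold. TCH4 at 0.178 and XTH23 at 0.432 lie left of the lower 2-fold line and XTH25 at 0.310 has a wide interval. XTH20 at 1.77 is furthest to the right of the genes drawn. XTH26, like XTH25 below the level filter, had a fold of 2.56 and is not drawn.

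**Figure D3:**
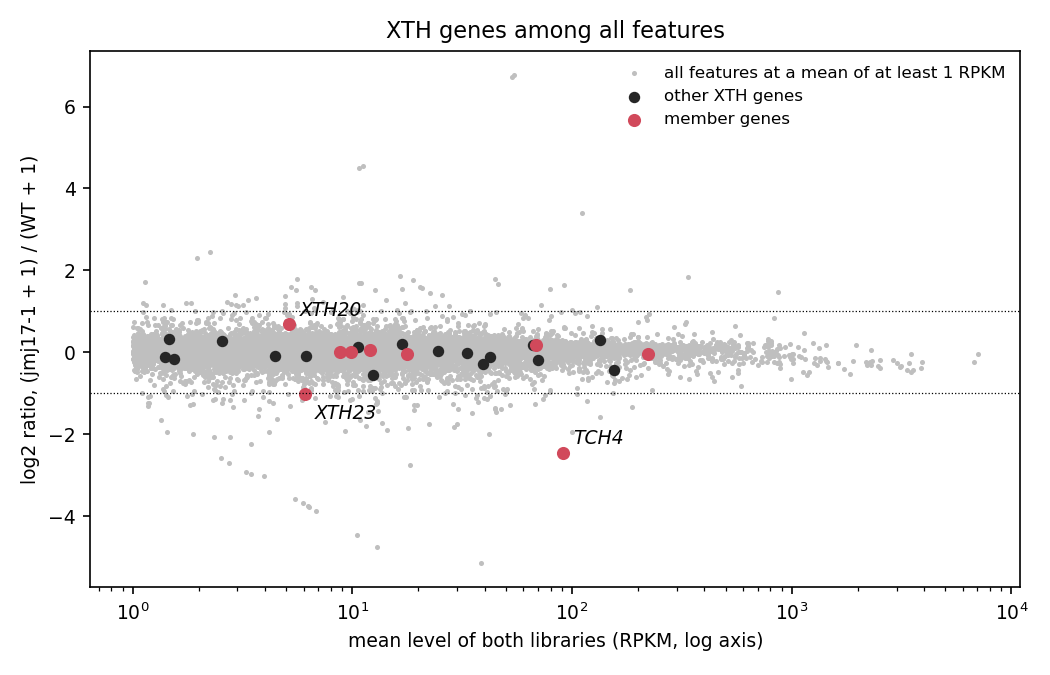
Log2 ratio against mean level in RPKM (log axis) for the 18969 features averaging at least 1 RPKM, with XTH genes enlarged. TCH4 at -2.45 lies below the cloud of features of similar level, and XTH23 at -1.02 sits at the dotted 2-fold line.

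Several members lie in tandem with other XTH genes. None of the neighbours named here that passed the level filter was called, beside 0.97% of all features. XTH25, next to TCH4, was below that filter and stood lower in jmj17-1, at 0.80 RPKM in WT against 0.25 (fold 0.310, 0.103 to 0.782). TCH4 is followed at a gap of 565 bases by XTH25, on the same strand at chr5:23304782-23306440, and then by XTH13 and XTH12, which are 93.0% identical in protein. XTH13 stood at 1.20 RPKM in WT against 1.73 in jmj17-1, and XTH12 at 2.22 and 2.90. Upstream of TCH4 the protein kinase family gene AT5G57565 stood at 4.32 and 3.50 RPKM, and the noncoding RNA gene AT5G08715, which lies between them, was not analysed here. XTH23, on the plus strand at chr4:13128394-13129927, is followed after 363 bases by XTH14, a gene known from root hairs. XTH14 stood at 15.5 RPKM in WT against 18.1 in jmj17-1 (fold 1.17, 1.07 to 1.28), the other direction from XTH23. On the other side, the calmodulin-binding protein gene AT4G25800 stood at 0.67 and 0.69 RPKM and AT4G25790 at 1.67 and 1.70. AT4G25830, of an uncharacterized family, stood at 10.7 and 9.37 RPKM. XTH24, on the minus strand at chr4:14819192-14820595, lies beside XTH18 and XTH19, with AT4G30260, a Yip1 family membrane protein gene, at 20.3 and 21.0 RPKM and AT4G30250 at 1.36 and 2.09.

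**Figure D4:**
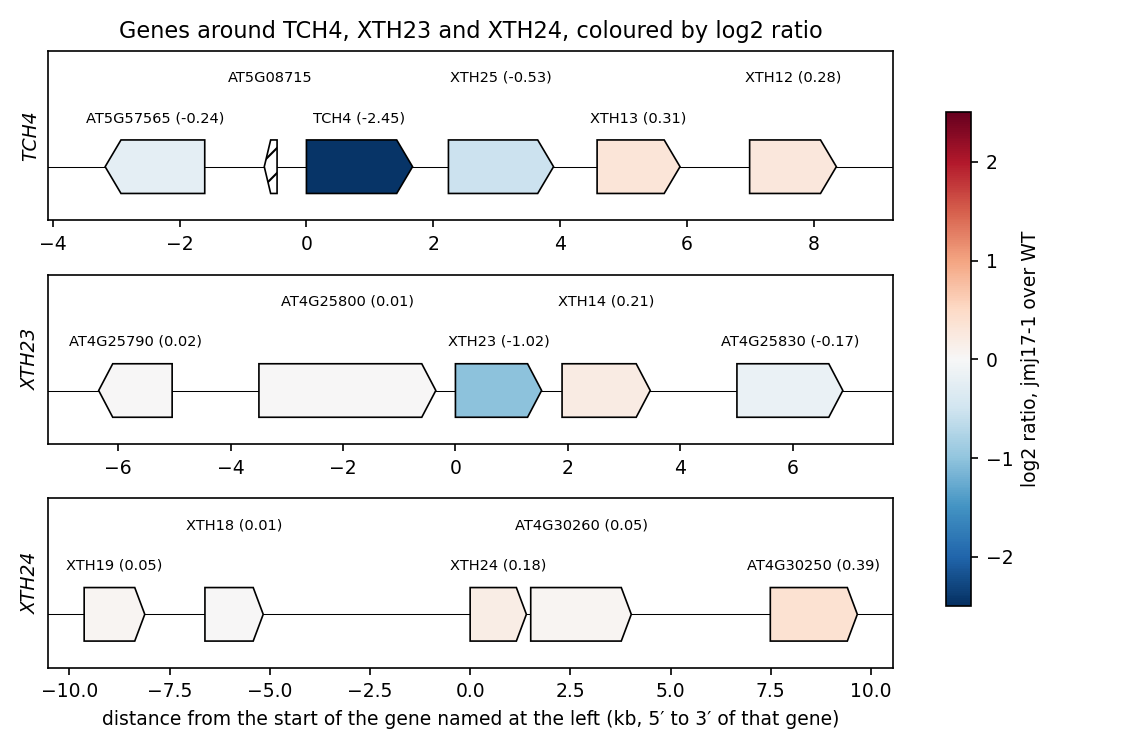
Gene maps around TCH4, XTH23 and XTH24, drawn to scale in kb from the start of each named gene, with arrows pointing along transcription. Colour and the number beside each name give the log2 ratio, jmj17-1 over WT, and the hatched gene was not analysed. TCH4 is at -2.45 and XTH23 at -1.02, and their drawn neighbours run from -0.53 to 0.31. The lowest of these neighbours, XTH25, is below the level filter. There the added 1 RPKM shrinks the log2 ratio, and the plain fold of XTH25 is 0.310. No gene around XTH24 passes 0.39.

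XTH17, XTH20, XTH15 and XTH4 lie apart from these groups. XTH17 is at chr1:24257054-24258506 (plus strand), XTH20 at chr5:19481897-19483527 (plus), XTH15 at chr4:8137020-8138392 (minus) and XTH4 at chr2:2763449-2765743 (plus). XTH18 and XTH19, beside XTH24, lie at chr4:14825757-14827211 and chr4:14828712-14830224, both on the minus strand.

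The promoters of the called members were read from TAIR10.1, since TCH4 and XTH23 were both called lower. The 250 bases before each RefSeq start are given on the coding strand, and capitals mark the motifs found.
TCH4: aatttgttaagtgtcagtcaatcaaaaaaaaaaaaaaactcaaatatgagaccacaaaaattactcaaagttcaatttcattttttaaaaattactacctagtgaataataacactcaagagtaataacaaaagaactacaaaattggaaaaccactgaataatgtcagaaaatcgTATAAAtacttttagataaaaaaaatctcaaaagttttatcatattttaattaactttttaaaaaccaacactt
XTH23: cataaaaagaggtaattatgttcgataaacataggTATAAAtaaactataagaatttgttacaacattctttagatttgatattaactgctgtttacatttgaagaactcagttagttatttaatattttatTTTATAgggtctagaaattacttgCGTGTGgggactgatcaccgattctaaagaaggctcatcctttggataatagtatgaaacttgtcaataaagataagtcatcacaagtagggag
The TCH4 stretch is chr5:23308681-23308930 on the minus strand, with 22.0% G and C, and the XTH23 stretch is chr4:13128144-13128393 on the plus strand, with 29.6%. Windows of 250 bases before to 50 after the start were searched on both strands for CGCGTT (the core of the rapid stress response element), CACGTG (the G-box), CGTGTG and CGTGCG (forms of the brassinosteroid response element) and TATAAA (the TATA box core). No motif found in these stretches overlaps another. The TATA core was in the windows of 6 members, among them TCH4, XTH23, XTH24 and XTH25, and in 52.1% of 27443 promoters. CGTGTG was in XTH23 and XTH25, in XTH2 and XTH8 outside the members, and in 6.52% of promoters. CGCGTT was in XTH18 and XTH20, in XTH13 outside the members, and in 3.4% of promoters. CACGTG and CGTGCG were in 0 members, beside 7.68% and 1.96% of promoters. In TCH4 the TATA core, 74 bases before the start, was the sole match of those searched in the printed stretch. A match here is a description of letters and not a site of binding.

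TCH4 takes its name from a set of touch genes of which the other 3 encode calcium sensors. TCH3 (CML12, calmodulin-like) fell from 163 RPKM in the WT library to 70.2 in the mutant library (fold 0.431, 0.417 to 0.446). TCH2 (CML24, calmodulin-like) fell from 44.3 to 20.8 RPKM (fold 0.471, 0.394 to 0.562), with a log2 ratio of -1.05 near the limit. TCH1, which encodes a calmodulin (CAM2), stood at 64.6 and 68.9 RPKM. Of these 3 genes 2 were called lower and 0 higher, beside 0.58% and 0.39% of all features. The list was chosen with earlier results of these data known, so nothing is read from that count. By ratio the difference of TCH4, for which it was chosen, was the largest of the 4 TCH genes, at 0.178.

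Among genes that make or trim xyloglucan, XXT1 and AXY4 had the largest ratios in size. Of 14 synthesis genes 0 were higher and 0 lower, beside 0.39% and 0.58% of all features, so nothing is read from these counts, nor from the counts of 0 in the short lists that follow. The median log2 ratio of the synthesis genes was 0.05 beside 0.04 for all features. XXT1, a xylosyltransferase that adds the side chains, stood at 18.6 RPKM in WT against 10.2 in jmj17-1 (fold 0.551, 0.508 to 0.597), while its partner XXT2 stood at 44.9 and 47.2. AXY4, which acetylates xyloglucan, stood at 5.66 and 7.83 RPKM (fold 1.38, 1.23 to 1.56). Of 3 genes for enzymes that trim xyloglucan 0 were called, with the fucosidase gene AXY8 at 32.9 and 26.7 RPKM and the xylosidase gene XYL1 at 92.5 and 97.6.

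Of 8 genes for cellulose synthesis in the primary wall 0 were called, beside 0.97% of all features, and their log2 ratios ran from -0.13 to 0.12. CESA2, a catalytic subunit, stood at 42.2 RPKM in WT against 38.6 in jmj17-1, and CESA5, also a catalytic subunit, at 26.1 and 28.6. Of 12 brassinosteroid genes averaging at least 1 RPKM 0 were called, again beside 0.97%, with a median of -0.05 beside 0.04 for all features. BAS1, whose enzyme inactivates brassinosteroids, stood at 4.97 RPKM in WT against 2.65 in jmj17-1 (fold 0.534, 0.457 to 0.623). DWF4, whose enzyme catalyses a limiting step of synthesis, stood at 10.3 and 7.36 RPKM (fold 0.713, 0.579 to 0.875).

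Root markers were measured because XTH17 to XTH20 are known from roots and a whole seedling can hold more or less root. Of 10 markers 8 averaged at least 1 RPKM and 0 of these were called, beside 0.97% of all features. The log2 ratios of all 8 lay above 0, as did those of 11478 of the 18969 features. The summed level of all 10 markers was 53.3 RPKM in WT against 62.6 in jmj17-1, and no marker was at 0. The median log2 ratio of the 8 was 0.13. WOX5, which marks the root quiescent centre, stood at 0.94 and 2.06 RPKM and PRP3, a root hair gene, at 14.4 and 19.9. These had the largest ratios of the list, while SCR, at 11.3 and 11.75 RPKM, and SHR, at 8.24 and 8.27, ran nearly level. Below the level filter, PLT1 stood lower in jmj17-1, at 0.63 and 0.50 RPKM, and PLT2 stood at 0.48 and 0.49. In bulk RNA more cells of a type and more RNA per cell cannot be told apart, and the part of root content in the XTH20 difference was not tested.

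**Figure D5:**
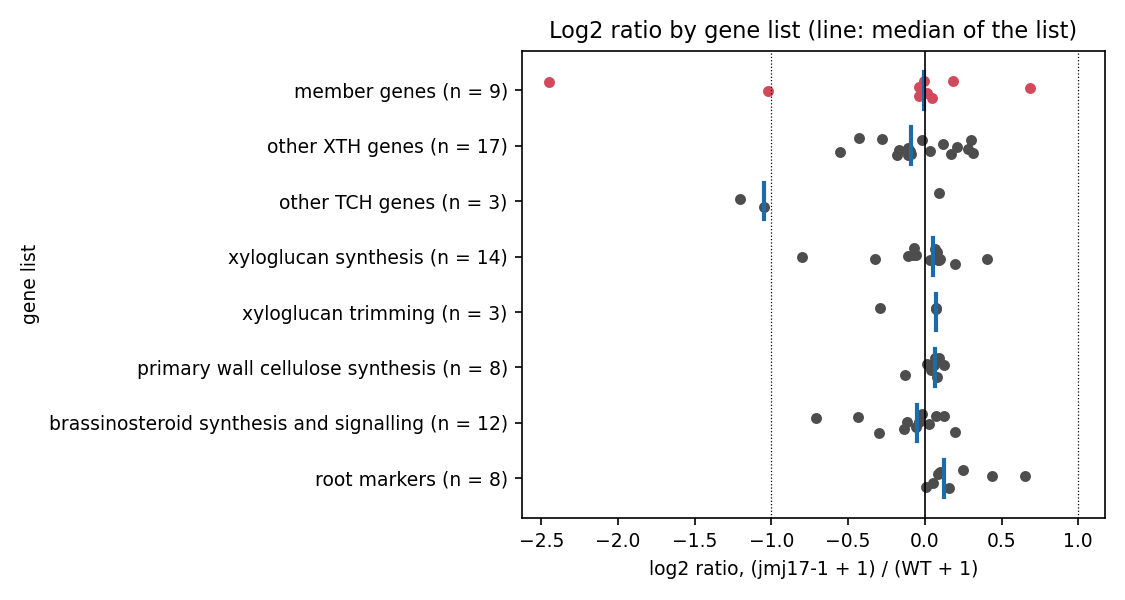
Log2 ratio, (jmj17-1 + 1) over (WT + 1) in RPKM, of each gene averaging at least 1 RPKM, by gene list, with the list's median as a line and dotted lines at 2-fold. The points past the lower dotted line are TCH4, XTH23, TCH3 and TCH2, and no point lies past the upper one.

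The features nearest to TCH4 in log2 ratio over these 2 libraries, among those averaging at least 5 RPKM, were PHI-1 (phosphate-induced, -2.76), AT4G27280 (an EF-hand calcium-binding protein, -2.00), AT1G07135 (a glycine-rich protein, -1.94), the defensin gene PDF1.2c (-1.92) and the calmodulin-like CML38 (-1.89). The gaps to TCH4 were 0.31 to 0.56 on the log2 scale, with PHI-1 the nearest. Likeness over 2 libraries is likeness of a single ratio. The list that the authors' deposited table gives under a p of 0.05 holds 410 features, 1.53% of all, and its XTH genes were TCH4 and XTH9. XTH23 had a p of 0.167 in the authors' deposited table. The authors' p-values rest on the same 2 libraries, so they cannot measure the spread between seedlings.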

How the data were processed

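Messenger RNA was sequenced from 1 WT and 1 jmj17-1 library of whole seedlings, with TruSeq libraries per the labels' protocols. The deposited values are RPKM calculated by the authors, and the submitters' processing notes name genome build TAIR10. None of the sources used here gives the aligner, the counting method, the lengths used or the regard to strand. The authors also deposited a Z score and an unadjusted p-value per feature, which are used only where named.

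Levels were taken as deposited. The log2 ratio used a pseudocount of 1 RPKM, and features with a mean below 1 RPKM were not called. The ratio of depths, WT over jmj17-1, was 1.187, the most frequent ratio among 1184 features below 0.1 RPKM. After division by it, the ratio of 18623 of 24815 features above 0 in both libraries equalled a ratio of whole numbers up to 30000, within a relative 1e-12. This held for all 10 members and for 30 of the 31 XTH genes. Those whole numbers are the smallest reads possible, and intervals rest on them. Depth in reads was scaled with TAIR10.1 transcript lengths and is approximate. All 10 loci were found in TAIR10.1. Protein identity used Biopython 1.88 with global alignment of translated RefSeq coding sequences. The scripts, in Python 3.11.15, were tested on simulated data.

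The members, the gene lists and the alternatives were chosen with earlier results of these data known. Named were all members, the other XTH genes that were called or else the extremes and the most abundant, up to 4 called genes of each list or else the 2 with the largest ratios, the neighbours, the 5 features nearest to TCH4, and JMJ17. XTH26, XTH12, XXT2, TCH1, SCR, SHR, PLT1 and PLT2 fall outside this rule and were picked after their values were seen. Also outside it are AT4G14120, XTH21, XTH2 and XTH8, named for an overlap, a shared run of bases or a motif. Alternatives changed the pseudocount, the filter and the scaling.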

Additional observations from a re-analysis of the deposited data

How the results depend on the processing

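TCH4 was called lower under every pseudocount and scaling tried, with a log2 ratio from -2.49 to -2.30. XTH23 ranged from -1.19 to -0.64 and was not called at a pseudocount of 5 RPKM. With that pseudocount 1 member, and 1 XTH gene in all, was called lower, as was 1 of the other TCH genes, because TCH2 stood at -0.93. Over all features 25 were then higher and 49 lower. With a pseudocount of 0.1 RPKM 142 features were higher and 1 root marker passed 2-fold, and XTH25 stood at -1.37. With a mean of at least 5 RPKM 71 features were lower. The ratio of the members' sums was 0.726 with the median of all features set to 0, 0.723 under quantile normalization and 0.728 with the upper quartiles set equal. Without TCH4 and on the deposited scale it was 1.00, and that of the family 0.969. The signs of XTH17 (-0.05 to 0.0045) and XTH18 (-0.03 to 0.03) changed with the scaling, as did the median of the 9 members (-0.05 to 0.0045), while XTH20 ranged from 0.41 to 0.81. Of the 8 root markers 7 or 8 lay above 0. No paired analysis was possible because there is 1 library per genotype, and leaving out a library leaves no comparison. Among the 10 members depth limits XTH25 most, at 23 and 6 reads or a multiple.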
